A study of Homo sapiens
Rattus norvegicus and Homo sapiens with 10 samples.

Results

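The genes described here are 10 members of the mesenchymal programme of glioblastoma, out of 62754 genes in the deposited table. They were chosen by name. Of these, 6 encode transcription factors of the epithelial to mesenchymal transition (SNAI1, SNAI2, ZEB1, ZEB2, TWIST1, TWIST2) and 4 encode products used as markers of mesenchymal glioma cells (VIM, CHI3L1, MGP, SERPINA3). Their RNA was measured in intracerebral grafts of the human glioblastoma line U251N in adult female RNU/RNU rats. These athymic animals lack most T cells but keep other immune cells. The host is the same in every in vivo group, so each in vivo library can hold RNA of the graft and of the rat brain. The 3 primary tumours were never ablated. The 3 recurrent tumours were regrowths that followed laser interstitial thermal therapy (LITT), the heating of a tumour through a laser fibre under imaging. The 3 control brains are labelled as procedural or failed-graft controls, of which control replicate 1 is the failed graft. The remaining library is 1 untreated culture of the line. The sources do not say in words that each tumour came from its own animal, so p-values measure the spread between these samples, which may be technical in part. The line is a single long-passaged model, and 1 culture library gives no spread of its own.

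SNAI1 (Snail) and SNAI2 (Slug) are zinc-finger repressors that bind E-box sequences and silence epithelial genes such as E-cadherin. ZEB1 and ZEB2 carry zinc fingers on both sides of a homeodomain, repress the same class of genes and form a mutually inhibitory loop with the miR-200 microRNA family. TWIST1 and TWIST2 are basic helix-loop-helix factors of the embryonic mesenchyme. VIM encodes vimentin, the intermediate filament of mesenchymal cells and of many glioma cells. CHI3L1 encodes a secreted chitinase-like glycoprotein (YKL-40), MGP a matrix protein that inhibits calcification, and SERPINA3 the secreted protease inhibitor alpha-1-antichymotrypsin, which reactive astrocytes also make. In glioma, a tissue without epithelial origin, high levels of such genes mark the mesenchymal-like end of the range of tumour cell states.

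On GRCh38 the ZEB1 gene spans chr10:31318495-31529814 (plus strand) and VIM, on the same chromosome, chr10:17228259-17237593 (plus). ZEB2 spans chr2:144364364-144524583 (minus), TWIST1 chr7:19020991-19117672 (minus) and TWIST2 chr2:238848032-238910543 (plus). SNAI1 lies at chr20:49982999-49988886 (plus), SNAI2 at chr8:48917604-48921740 (minus), CHI3L1 at chr1:203178931-203186749 (minus), MGP at chr12:14881181-14885926 (minus) and SERPINA3 at chr14:94612377-94624055 (plus). Coordinates are those of GENCODE 29, and all 10 genes are annotated as protein-coding.

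The link between the ZEB genes and miR-200 can be read in their transcripts, and 4 of the sites are shown here because the levels of ZEB2 relative to ZEB1 are among the results. The 3′ untranslated regions were searched on the mRNA strand for CAGTATT, which pairs with the seed of miR-200b, miR-200c and miR-429, and for CAGTGTT, which pairs with that of miR-141 and miR-200a. Matches of these motifs cannot overlap. The first match of each motif is given for each gene, from GENCODE 29 transcripts on GRCh38, with the match in capitals:

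ZEB1, chr10:31527622-31527650, plus strand: ttttatcttatCAGTATTatcactcttat

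ZEB1, chr10:31528035-31528063, plus strand: atcatcagaatCAGTGTTtgtgattgtgt

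ZEB2, chr2:144389042-144389070, minus strand: ctaccatacatCAGTATTtttattattat

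ZEB2, chr2:144389226-144389254, minus strand: aaaattttgtaCAGTGTTaaggcctaaaa

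The 1938-base 3′ untranslated region of ZEB1 held 8 matches, 5 of the first motif and 3 of the second. Of the 5053 protein-coding genes with a region at least that long, 40.5% held at least 1 match in their first 1938 bases and 2 genes (0.04%), ZEB1 and ZEB2, held at least as many. The 5370-base region of ZEB2 held 9 matches, 5 and 4. Among 882 genes with regions of that length, 74.5% held any match and 1 gene (0.113%), ZEB2 itself, reached 9. SNAI2 held 1 match and the other 7 genes held 0. A match is a description of letters and not a measured binding site. MIR200CHG, the host transcript of miR-200c and miR-141, had 0 counts in all 10 libraries, which allows up to 3 counts in each. Mature microRNAs were not measured.

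TWIST1 and TWIST2 are close relatives, so reads of either gene could be credited to the other. The longest ungapped block in a local alignment of their coding sequences (609 and 483 bases) was 311 bases, at 89.1% identity. A stretch of 90 bases around their longest shared run is shown because the split of reads rests on it. The 10 differing bases are in capitals:

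TWIST1, chr7:19116917-19117006, minus strand: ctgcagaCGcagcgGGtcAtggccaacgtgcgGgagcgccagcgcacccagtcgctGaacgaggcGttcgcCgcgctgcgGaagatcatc

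TWIST2, chr2:238848405-238848494, plus strand: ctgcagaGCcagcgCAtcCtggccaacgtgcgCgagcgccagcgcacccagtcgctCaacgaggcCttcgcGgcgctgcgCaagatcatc

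The longest run shared by the compared transcripts was 23 bases, and the reads were 100 bases long per mate. TWIST2 had 0 counts in 9 libraries and 3 counts in recurrent replicate 2, against 192 to 389 counts of TWIST1 in each tumour.

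Depth differed mainly between tumours and controls. Tumour libraries held 20321590 to 39714714 estimated counts, the culture 65058642 and the controls only 1358753 to 4158124. Graft reads made up 42.52% to 64.4% of reads in primary tumours and 29.44% to 42.67% in recurrent tumours, per the labels. Structural small RNAs took 5.36% to 13.22% of counts in tumours, but 82.37% and 78.82% in control replicates 1 and 2. The RNA integrity number (RIN) of the labels was 7.8 to 8.9 in primary and 8.1 to 8.8 in recurrent tumours, lowest in primary replicate 2. It was 9.2 in the culture and 8.7, 6.1 and 8.9 in control replicates 1 to 3. Control replicate 3 stood apart from its label. It held 4.9% graft reads against 0.33% and 0.55% in the other controls, and its levels of VIM (2598 CPM, counts scaled to the library total), SERPINA3 (601 CPM) and SNAI2 (33.9 CPM) lay within or near those of tumours. Results that use the controls are therefore given with and without it. The 7 genes chosen to mark the glioblastoma line (EGFR, SOX2, NES, GFAP, S100B, CD44, PTPRZ1) were counted in all 6 tumours. The 8 markers of microglia and macrophages, aligned as human, summed to 488 to 901 counts per tumour and 1487 in the culture. CD68 (407 to 782 counts) and CSF1R (34 to 115) made up most of this, ITGAM and TMEM119 reached at most 17 and 15 counts, and AIF1, CX3CR1, P2RY12 and PTPRC were at 0 in all 6 tumours.

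In the tumours, VIM was by far the most abundant of the 10 transcripts and SNAI1 and TWIST2 the least. Genes were compared in TPM, a share of the transcripts that corrects for their length. Over the 6 tumours, VIM stood at 3539 ± 531 TPM (SD, n = 6), followed by SERPINA3 at 301 ± 114 TPM. SNAI2 followed at 39.1 ± 10.6 TPM, ZEB2 at 38.1 ± 7.04 TPM, ZEB1 at 27.6 ± 6.10 TPM and TWIST1 at 14.9 ± 1.84 TPM (SD, n = 6 each). CHI3L1 stood at 9.15 ± 5.36 TPM and MGP at 7.53 ± 4.23 TPM. SNAI1 stood at 0.35 ± 0.10 TPM, from 4 to 13 counts per library. Neighbours in this order whose ranges overlapped, and so are not ordered by these data, were SNAI2 and ZEB2, ZEB2 and ZEB1, TWIST1 and CHI3L1, and CHI3L1 and MGP. The place of ZEB2 depends on the length used: with all annotated exons counted, it stood at 21.4 TPM, below ZEB1 at 25.6 TPM.

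**Figure D1:**
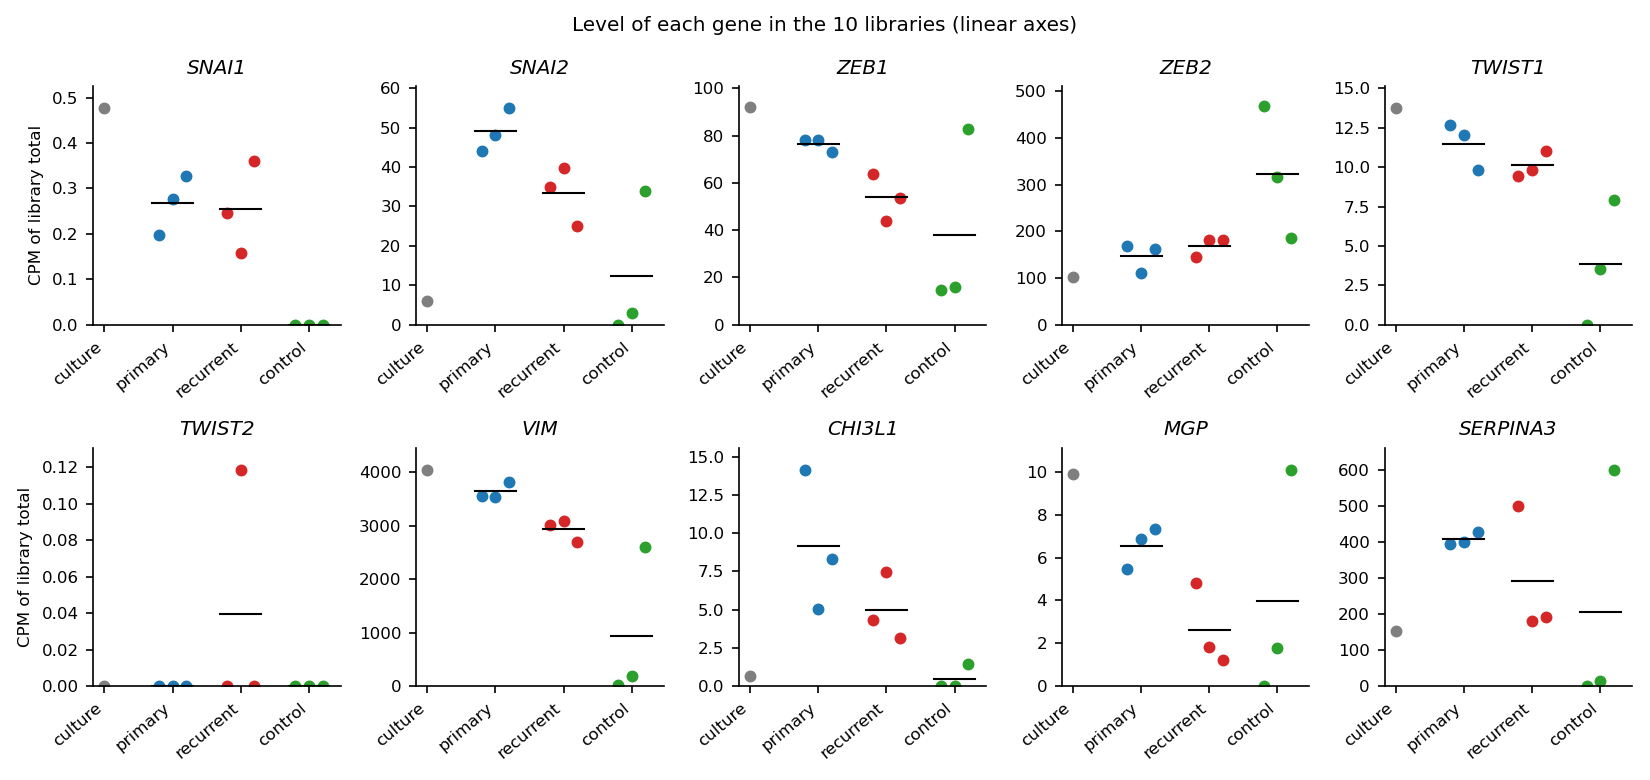
Level of each of the 10 genes in every library, in CPM of the library total on linear axes that start at 0. Points are libraries, left to right in replicate order, and black bars are means of 3. The recurrent points of SNAI2, ZEB1, VIM and MGP all lie under the primary points, and control replicate 3, the right-hand control point, lies far above the other controls for VIM, SERPINA3 and SNAI2.

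The central comparison of the study set tumours that recurred after ablation against tumours never ablated. None of the 10 genes was called higher or lower at recurrence. By direction, 7 of the 8 that could be tested were lower in the recurrent tumours and only ZEB2 was higher. Of all genes tested, 50.9% were lower. In edgeR's quasi-likelihood test over 15928 genes with Benjamini-Hochberg adjustment, 0 of 8 members were called, and 0.00628% of all genes were (1 gene, lower). At an unadjusted p under 0.05, 4 members were lower (SNAI2, ZEB1, MGP, CHI3L1), against 4.2% of all genes lower and 5.08% higher. The median log2 fold change of the 8 members was -0.50, against -0.006 over all genes tested. SNAI1 and TWIST2 did not pass the filter on low counts. In bulk tissue, fewer cells of a kind and less RNA per cell cannot be told apart.

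In 4 members (SNAI2, ZEB1, VIM and MGP), all 3 recurrent tumours lay under all 3 primary tumours. Of all genes tested, 7.76% were placed that way. DESeq2 called 108 genes and limma-voom 0, and each called 0 members, with 5 and 3 members at an unadjusted p under 0.05. At that limit, in either direction, DESeq2 had 1688 of 30188 genes and limma-voom 1412 of 15928. In these tools the smallest adjusted p of a member was 0.190 and 0.421. The form of the edgeR fit mattered together with the filter: its older (legacy) form without a filter on low counts called SNAI2 (adjusted p = 0.0398) and MGP (adjusted p = 0.0433), both lower. That setting called 0.61% of 30188 genes lower and 0.752% higher.

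**Figure D2:**
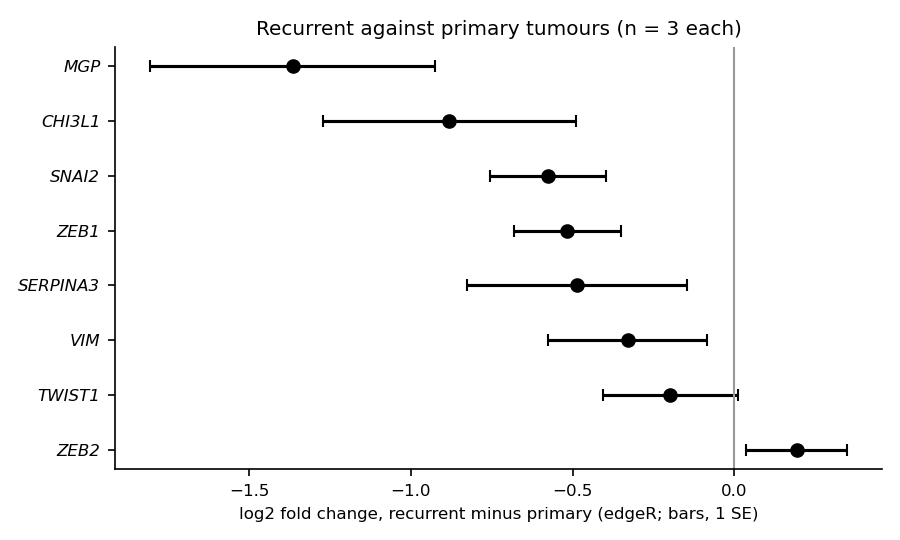
The log2 fold change of recurrent against primary tumours for the 8 members tested, as points with bars of 1 SE from edgeR. ZEB2 is the only point right of 0, and MGP, at -1.37, is the lowest.

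Among the repressors, SNAI2 stood at 44.1, 48.1 and 54.9 CPM in the primary tumours and at 35.0, 39.8 and 25.1 CPM in the recurrent tumours. The groups did not overlap, and recurrent replicate 3 was lowest. Its log2 fold change was -0.58 (SE 0.18, edgeR adjusted p = 0.454). Adjustment for the graft share reduced it to -0.39, and it ran from -0.71 to -0.42 with each of the 6 tumours left out in turn. SNAI1 was close to the limit of detection, with 5, 7 and 13 counts in primary and 5, 4 and 9 counts in recurrent tumours. These counts overlapped between the groups. SNAI1 did not pass the filter on low counts, so its difference was not tested in the main fit.

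ZEB1 stood at 78.0, 78.2 and 73.0 CPM in primary tumours and at 63.9, 44.0 and 53.6 CPM in recurrent tumours. The primary values lay close together, and every recurrent value was lower. The log2 fold change was -0.52 (SE 0.17, edgeR adjusted p = 0.454), and it was -0.79 with the labels' graft share fitted as a covariate. With 1 tumour left out it ran from -0.68 to -0.38. ZEB2, its paralog, stood at 169, 111 and 162 CPM in the primary and 145, 181 and 181 CPM in the recurrent tumours. These groups overlapped, with primary replicate 2 lowest (log2 fold change 0.19, SE 0.16, edgeR adjusted p = 0.699). Without primary replicate 2 the value was 0.06, without recurrent replicate 3 it was 0.13, and adjustment for the graft share gave 0.30.

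The ratio of ZEB2 to ZEB1 counts within a library, a measure chosen after its values were seen, was 1.41 to 2.22 in primary and 2.27 to 4.10 in recurrent tumours. The means were 1.93 ± 0.449 and 3.25 ± 0.920 (SD, n = 3 each), with a two-sided exact permutation p = 0.1, the smallest that 3 against 3 allows. Part of the ZEB2 count also appears in control brains, as described below. With the highest control count of ZEB2 subtracted from ZEB2 alone, the ratios were 1.03 to 1.95 and 1.68 to 3.41. The groups then overlapped (exact permutation p = 0.3). That highest count is the one of control replicate 3, where ZEB1 had 345 counts, 31.0% of its lowest tumour count against 27.5% for ZEB2. With the highest ZEB2 count of the other 2 controls subtracted instead, the ratios were 1.09 to 2.00 and 1.78 to 3.53. The groups again overlapped (exact permutation p = 0.3), and ZEB1 had 20 and 27 counts in those controls. No ZEB1 count was subtracted in either form, and ratios with both genes reduced were not tested.

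TWIST1 varied least among the members over the 6 tumours, with its highest level 1.34 times its lowest. It stood at 12.6, 12 and 9.79 CPM in the primary and 9.45, 9.84 and 11 CPM in the recurrent tumours. The groups overlapped (log2 fold change -0.20, SE 0.21, edgeR adjusted p = 0.772). Adjustment for the graft share gave -0.44. The value was -0.12 without primary replicate 2 and -0.32 without primary replicate 3.

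Among the markers, VIM stood at 3559, 3544 and 3824 CPM in the primary and 3009, 3088 and 2693 CPM in the recurrent tumours. Vimentin RNA was thus lower in each recurrent tumour, by a small amount. The log2 fold change was -0.33 (SE 0.25, edgeR adjusted p = 0.680).

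MGP had the largest fitted difference among the members with all 6 tumours in the fit. It stood at 5.48, 6.87 and 7.33 CPM in primary tumours and at 4.82, 1.82 and 1.24 CPM in recurrent tumours. Recurrent replicate 1 lay just under the primary range and the other 2 recurrent tumours far below it. These values rest on 31 to 291 counts. This gave a log2 fold change of -1.37 (SE 0.44, edgeR adjusted p = 0.454), and of -2.14 without recurrent replicate 1 (adjusted p = 0.0623). Without recurrent replicate 3 it was -1.03, and without recurrent replicate 2 it was -1.15, smaller in size than the -1.29 of CHI3L1 in the same fit.

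CHI3L1 overlapped between the groups, with 14.1, 5.02 and 8.33 CPM in the primary and 4.33, 7.47 and 3.13 CPM in the recurrent tumours. Primary replicate 1 was highest. On the log2 scale the difference was -0.88 (SE 0.39, edgeR adjusted p = 0.534), or -0.47 without that tumour.

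SERPINA3 separated the recurrent tumours from each other. It stood at 395, 399 and 428 CPM in primary tumours, but at 500 CPM in recurrent replicate 1 and at 181 and 192 CPM in recurrent replicates 2 and 3. The highest and the lowest of the 6 tumours were thus both recurrent. The log2 fold change was -0.49 (SE 0.34, edgeR adjusted p = 0.660). Without recurrent replicate 1 it was -1.17 and called lower (adjusted p = 0.0258) while adjustment for the graft share gave -0.92 (adjusted p = 0.630). Without recurrent replicate 2 the value shrank to -0.23 and without recurrent replicate 3 to -0.27. Recurrent replicate 1 had the lowest graft percentage, 29.44%, and its library name begins with IL like those of all primary tumours, while the names of recurrent replicates 2 and 3 begin with NL. The meaning of the prefix is unknown. Fitting it leaves only recurrent replicate 1 to set against the primary tumours and gave 0.32, so in the other pair recurrence and prefix cannot be told apart. In the same fit CHI3L1 stood at -1.04, SNAI2 at -0.46, MGP at -0.42, TWIST1 at -0.26, VIM at -0.25, ZEB1 at -0.23 and ZEB2 at 0.02.

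Wider lists of related genes were followed in the same fit, and no gene in them was called either. Of 33 genes of the mesenchymal-like glioblastoma state, 27 were lower in recurrent tumours and 6 higher, with a median log2 fold change of -0.18. At an unadjusted p under 0.05, 3 were lower and 0 higher, against 4.2% of all genes lower and 5.08% higher. C3, the central complement component, had the smallest p, with means of 27.9 ± 19.4 CPM in the primary against 10.3 ± 5.34 CPM in the recurrent group (SD, n = 3 each; log2 fold change -1.44, SE 0.45, edgeR adjusted p = 0.454). The groups overlapped in C3, with primary replicate 1 highest at 50.0 CPM. Primary replicate 2, at 13.5 CPM, lay under recurrent replicate 2, at 16.1 CPM. FN1 (fibronectin) had a log2 fold change of -0.56 (SE 0.25) and the interferon-induced membrane protein gene IFITM3 of -0.30 (SE 0.13).

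Of 14 mesenchymal and contractile target genes, 13 were lower and 1 higher, with a median of -0.35. At an unadjusted p under 0.05, 6 were lower and 0 higher, against 4.2% of all genes lower and 5.08% higher. The 3 of smallest p encode matrix proteins or their modifier. POSTN, the matrix protein periostin, averaged 825 ± 166 CPM in the primary against 413 ± 96.8 CPM in the recurrent group (SD, n = 3 each; log2 fold change -1.01, SE 0.20, edgeR adjusted p = 0.222). LOX, which cross-links collagen, stood at 98.8 ± 5.76 and 47.9 ± 18.5 CPM (log2 fold change -1.07, SE 0.22, edgeR adjusted p = 0.235). COL1A1, a chain of type I collagen, had a log2 fold change of -1.35 (SE 0.28, edgeR adjusted p = 0.233). In these 3 genes, and in 5 of the 14 in all, every recurrent tumour lay under every primary tumour, a placement that 7.76% of all genes had. In control replicate 3, COL1A1 stood at 2849 CPM, above the highest tumour at 1424 CPM, LOX at 100 CPM and POSTN at 307 CPM. In the other controls they reached at most 60.5, 10.6 and 21.1 CPM.

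Regulators placed upstream of the mesenchymal state went the other way: 11 of 15 were higher and 4 lower, with a median of 0.27. At an unadjusted p under 0.05, 4 were higher and 1 lower, against 5.08% of all genes higher and 4.2% lower. TGFBR2, the type II receptor of TGF-beta, stood at 66.3, 46.3 and 71.8 CPM in the primary and 86.5, 96.7 and 97.2 CPM in the recurrent tumours. Every recurrent tumour lay above every primary tumour (log2 fold change 0.60, SE 0.15, edgeR adjusted p = 0.350), as was the case for 5 of the 15 regulators and 6.47% of all genes. YAP1, the effector of Hippo signalling, had a log2 fold change of 0.37 (SE 0.13) and CEBPB, a transcription factor of the mesenchymal network, one of -0.49 (SE 0.18). Primary replicate 2 was the lowest of the 6 tumours in TGFBR2 and YAP1 (64.9 CPM), but not in CEBPB. Summed, the 15 regulators were also lowest there, at 1828 CPM, against up to 2523 CPM in the other primary tumours. Recurrent tumours summed to 2440 to 2816 CPM, so the sums overlapped. Primary replicate 2 had the lowest RIN of the tumours, 7.8, and the highest structural share, 13.22%. The list was not tested without it.

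The epithelial list was mostly silent. Of 12 epithelial genes and antagonists, 3 passed the filter on low counts. These were the keratins KRT8 (550 ± 63.5 CPM in the primary against 632 ± 42.9 CPM in the recurrent group; SD, n = 3 each) and KRT18 (103 ± 8.40 and 122 ± 6.33 CPM), and the tight-junction gene CLDN4 (14.8 ± 4.95 and 18 ± 6.85 CPM). All 3 had log2 fold changes above 0, from 0.18 to 0.29, and edgeR adjusted p from 0.613 to 0.779. OVOL1, OVOL2, CRB3 and MIR200CHG were at 0 in all 6 tumours. CDH1, the E-cadherin gene that the factors repress, had 0 counts in primary replicate 2 and recurrent replicate 2 and at most 53 counts in a tumour (primary replicate 1). It also had 22 counts in control replicate 1, the shallowest library, more than in 4 of the 6 tumours. CDH2, which encodes the N-cadherin of mesenchymal and neural cells, had 5121 to 10744 counts per tumour.

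Among the partners of vimentin in the filament network, 6 of 9 genes were tested, 2 lower and 4 higher. GFAP, the astrocyte filament, stood at 457, 537 and 596 CPM in the primary and 295, 285 and 336 CPM in the recurrent tumours. GFAP was the only 1 of the 6 genes with all recurrent values under the primary values, a placement that 7.76% of all genes had. Its log2 fold change was -0.81 (SE 0.16, edgeR adjusted p = 0.222). The lamin gene LMNA differed by 0.19 (SE 0.14) and PLEC, which encodes the filament linker plectin, by 0.39 (SE 0.24). PLEC overlapped between the groups, at 873, 442 and 918 CPM in the primary and 980, 1138 and 815 CPM in the recurrent tumours. Primary replicate 2 was lowest. In LMNA every recurrent tumour lay above every primary tumour, as in 6.47% of all genes.

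**Figure D3:**
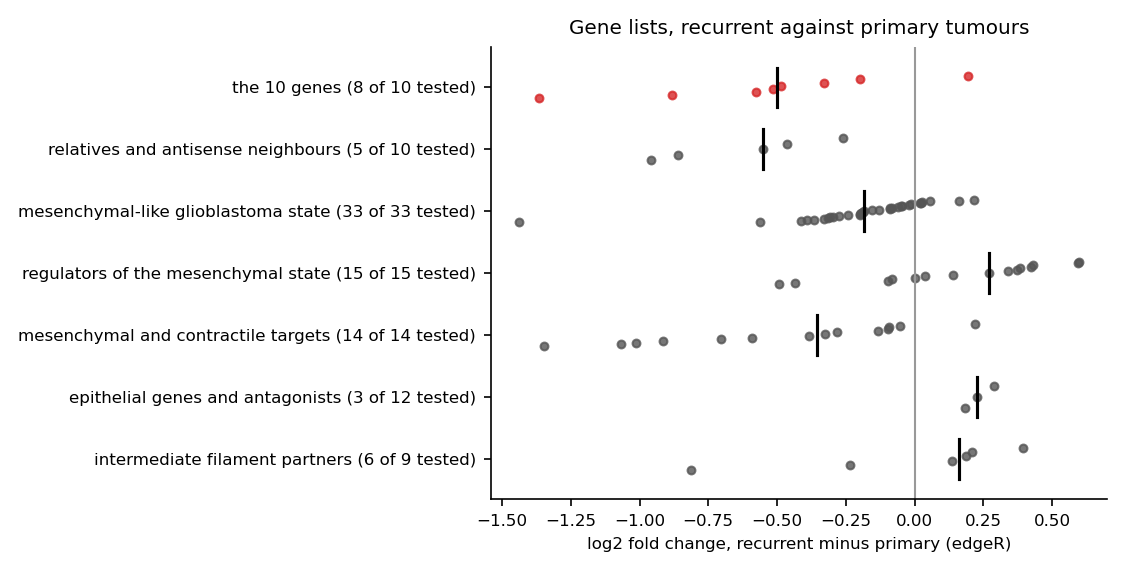
The log2 fold change of recurrent against primary tumours for each gene tested, in the 10 genes of interest and 6 related lists. Points are genes, spread vertically by rank for legibility, and black bars are list medians. The targets and the mesenchymal-like state lie mainly left of 0, at medians of -0.35 and -0.18, and the regulators mainly right, at 0.27.

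Relatives and antisense neighbours of the members were also mostly lower: all 5 of the 10 that passed the filter had log2 fold changes under 0, with a median of -0.55. SERPINA1 and SERPINA5, protease inhibitors related to SERPINA3, had log2 fold changes of -0.96 (SE 0.35) and -0.86 (SE 0.34). SERPINA5 shared the split of SERPINA3, at 156 CPM in recurrent replicate 1 and 55.5 and 64.7 CPM in recurrent replicates 2 and 3. CHI3L2, the paralog of CHI3L1, differed by -0.55 (SE 0.30). ZEB2-AS1, an antisense transcript at the start of ZEB2, did not pass the filter and is named after its values were seen. It had 2, 3 and 3 counts in primary and 6, 12 and 21 counts in recurrent tumours, 1 count in the culture and 1 to 7 counts in the far shallower controls. Libraries were strand-specific, so its reads can be told from those of ZEB2.

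For the 2 members with the widest range over the tumours, the genes of most similar pattern over the 7 tumour and culture libraries were sought among 15928 genes, by the root mean square difference in log2(CPM + 1) after centring. For MGP these were RCN3, a calcium-binding protein of the endoplasmic reticulum (0.27), EDNRB, the endothelin receptor type B (0.30), and ZNF815P, a zinc-finger pseudogene (0.31). RCN3 stood at 11.9 CPM in the culture, 5.39 to 6.95 CPM in the primary and 1.4 to 4.58 CPM in the recurrent tumours. For CHI3L1 these were ACTA2, smooth muscle actin (0.33), C1S, a complement protease (0.35), and CCDC144NL-AS1, a long noncoding RNA (0.36). ACTA2 stood at 3.91 CPM in the culture and at 13.4 to 26.8 CPM in the tumours. The libraries behind these values are shared by all genes, and the likeness is a description.

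The culture was set against the tumours to see how the line's levels in a dish compared with those in the brain. There is 1 culture, so no test was made: a gene was counted where the culture lay more than 2-fold outside the range of all 6 tumours. SNAI2 and CHI3L1 met this rule, both lower in the culture, and no member was higher. Of 16771 genes, 2.37% were lower by this rule and 4.31% higher. SNAI2 stood at 5.96 CPM in the culture (388 counts), and the lowest tumour was 4.21-fold above it. CHI3L1 stood at 0.646 CPM (42 counts), and the lowest tumour was 4.84-fold above it. The means of the 6 tumours were 6.90-fold and 11-fold above the culture, and both genes also passed a 4-fold limit.

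The other factors lay closer to the tumours. ZEB1, at 92.3 CPM in the culture, TWIST1, at 13.7 CPM, and SNAI1, at 0.477 CPM (31 counts), lay above every tumour, by 1.18-fold, 1.09-fold and 1.32-fold over the highest. Culture above every tumour held for 32.3% of all genes and culture under every tumour for 19.2%. ZEB2, at 103 CPM, lay under the lowest tumour by 1.08-fold. SNAI2 had 12.5 counts for each count of SNAI1 in the culture and 69.6 to 252 in the tumours, on 4 to 13 SNAI1 counts per tumour. The ZEB2 to ZEB1 ratio was 1.11 in the culture.

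Among the markers, VIM stood at 4050 CPM in the culture, 1.06-fold above the highest tumour, and fell inside the tumour range when TMM factors scaled the libraries. MGP stood at 9.90 CPM, 1.35-fold above the highest tumour, and more than 2-fold above all recurrent tumours alone. SERPINA3 stood at 154 CPM, 1.18-fold under the lowest tumour, and more than 2-fold under all primary tumours alone.

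Control brains show how much of each member is counted with little or no tumour. ZEB2 had the highest share of the 10 in control replicates 1 and 2: it had 637, 538 and 769 counts in the controls, 22.8%, 19.2% and 27.5% of the lowest tumour count (2798) in replicates 1 to 3. It ranked 18 and 24 by count among 19854 protein-coding genes in control replicates 1 and 2, and 612 in control replicate 3. In the same 2 libraries SNAI1, TWIST2 and CHI3L1 had 0 counts, SNAI2 0 and 5, TWIST1 0 and 6, MGP 0 and 3, SERPINA3 1 and 23, ZEB1 20 and 27, and VIM 38 and 316. For these genes that is at most 9.68% of the lowest tumour count, the value of MGP in control replicate 2, and at most 3.12% for the rest. Scaled to library totals, ZEB2 stood at 469, 316 and 185 CPM in the 3 controls.

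In control replicate 3 the members other than SNAI1 and TWIST2, at 0 counts, had 7.69% (CHI3L1) to 135% (MGP) of the lowest tumour count. MGP had 42 counts there and 31 in the lowest tumour. VIM had 10802 counts and SERPINA3 2498.

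**Figure D4:**
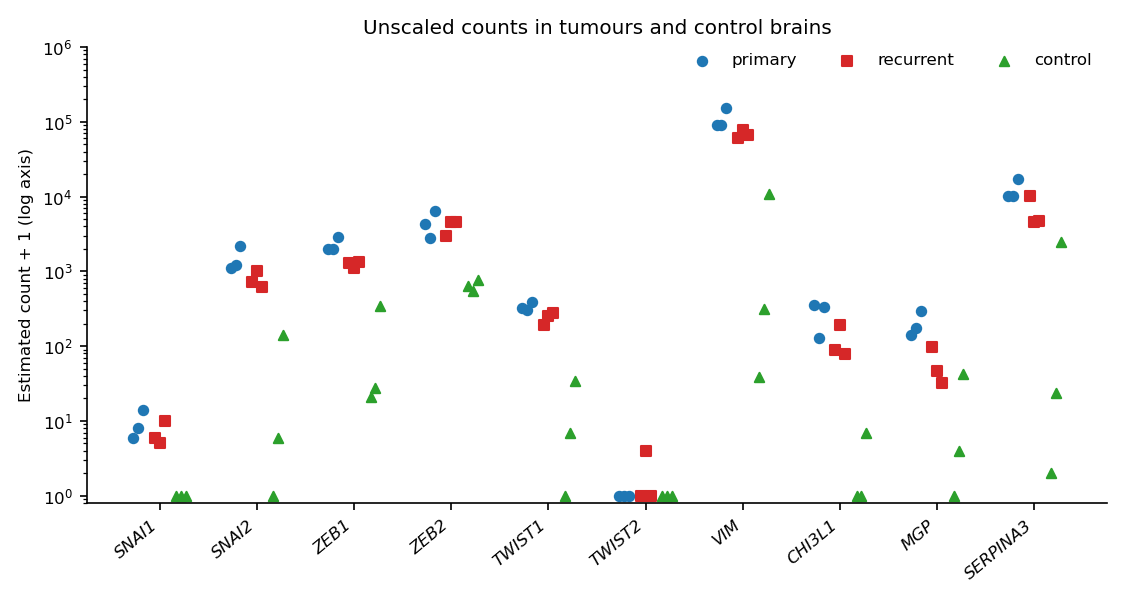
Unscaled estimated counts plus 1, on a log axis, for the 10 genes in primary tumours (circles), recurrent tumours (squares) and control brains (triangles, replicates 1 to 3 from left to right). The 3 control points of ZEB2 lie at 538 to 769 counts, while those of VIM spread from 38 to 10802.

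Subtracting the highest control count, 769, from each tumour, an alternative chosen after seeing the data, lowered the mean ZEB2 level from 158 to 128 CPM. Primary replicate 2 then stood at 80.1 CPM, under the culture, and the other 5 tumours at 108 to 150 CPM. With 637, the highest count of control replicates 1 and 2, the mean was 133 CPM, primary replicate 2 stood at 85.4 CPM and the other 5 tumours at 114 to 156 CPM. Both subtractions took the same unscaled count from every tumour, whatever its depth or graft share. They therefore set no bound on the part of the ZEB2 count that came from the host. Markers of neurons, aligned as human, were counted in the controls as well. The 8 neuronal markers summed to 552, 298 and 366 counts in control replicates 1 to 3, 401 to 632 in primary, 453 to 563 in recurrent tumours and 3760 in the culture, with GAD2 at 0 throughout. SLC17A7 was also at 0 in all 3 controls. In the tumours the markers differed widely. SYT1 (140 to 369 counts) and GAD1 (135 to 281) were highest, followed by RBFOX3 (5 to 109) and SNAP25 (27 to 72). SYN1, GRIN1 and SLC17A7 reached at most 9, 6 and 11 counts. Their part in the ZEB2 counts was not tested.

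Scaled between the groups, ZEB2 and ZEB1 were called lower in the 6 tumours than in the 3 controls, and the other 6 members tested were not called. The edgeR log2 fold change was -4.69 for ZEB2 (SE 0.68, adjusted p = 0.00152) and -1.44 for ZEB1 (SE 0.34, adjusted p = 0.0249). Of 16389 genes, 5.64% were called lower and 0.891% higher, and the median gene stood at 0.41. These values depend on scaling. With library totals in place of TMM the median gene moved to 1.77, ZEB2 to -1.03 (adjusted p = 0.204) and ZEB1 to 0.78 (adjusted p = 0.390), so that ZEB1 changed direction and neither was called. Relative to the median gene, ZEB2 lay lower in each of 15 settings, from -6.34 to -2.80. ZEB1 lay lower in 14, at -1.86 with TMM and -0.99 with library totals, but 0.32 above the median gene with DESeq2, where the median gene itself stood at -1.89.

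Without control replicate 3, VIM (1.53, adjusted p = 0.0402) and SERPINA3 (2.07, adjusted p = 0.0414) were also called, higher in the tumours, and ZEB2 and ZEB1 stood at -5.16 and -1.58. In that setting 11.1% of 17223 genes were called higher and 7.33% lower. The ZEB1 call rests on small margins: it was lost without any 1 of 7 other libraries, with adjusted p from 0.0510 to 0.0729, and without a filter on low counts (0.0660). The ZEB2 call stayed with each of the 9 libraries left out in turn, but without control replicate 1 its log2 fold change shrank to -3.34 (adjusted p = 0.0117).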

How the data were processed

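RNA-seq of 3 primary tumours, 3 recurrent tumours, 3 control brains and 1 culture was analysed from the table of Salmon estimated counts per gene that the authors deposited. STAR, Salmon 1.10.3, DESeq2 and the build GRCh38 are named in the submitters' processing notes. The annotation and the treatment of reads that match human and rat are unknown here. Per the labels' protocols, tissue was cut from frozen slices, RNA was purified without a DNase step, and libraries were ribosome-depleted, strand-specific and read as pairs.

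Of 62754 gene IDs, 58261 matched GENCODE 29 (GRCh38), which gave types, coordinates and lengths. TPM used the longest principal transcript and left 4505 structural small RNA genes out of the sum. CPM refers to library totals. Replicates were numbered in record order. Counts were rounded and tested in edgeR 4.0.16 under R 4.3.3 (TMM, default filter, quasi-likelihood F test, two-sided, no covariate, Benjamini-Hochberg, threshold 0.05). The SE is the log2 fold change divided by the square root of F. DESeq2 1.42.0 and limma 3.58.1 (voom) were alternatives. The edgeR steps were also run on simulated counts in which all libraries shared a single composition apart from the changed genes. The real controls differ in composition from the tumours, so that run does not bear on the comparison with controls. A count of 0 allows 3 counts, which is 0.0755 to 0.148 CPM for tumours and 0.721 to 2.21 CPM for controls. Floors cover counting error only.

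The members and lists were chosen with earlier results of these data known. The current form of the edgeR fit was taken, to match that earlier processing, after both forms had been run. From each related list the 3 genes of smallest p are named, and all 10 members are described.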

Additional observations from a re-analysis of the deposited data

How the results depend on the processing

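No paired analysis was made, because the labels name no pairs of primary and recurrent tumours. Of 128 alternative values of the 8 members in recurrent against primary tumours, 124 kept their direction and their side of the threshold. SERPINA3 turned to 0.32 with the library name prefix as a covariate (0 members called, 1 gene higher and 2 lower) and was called without recurrent replicate 1. SNAI2 and MGP were called by the legacy form of the edgeR fit without a filter on low counts, where 227 genes were higher and 184 lower and 2 members called. That form and both ZEB2 subtractions (mean 128.2 CPM, or 133.3 CPM without control replicate 3) were chosen after seeing the data. DESeq2 called 66 genes higher and 42 lower, and edgeR without a filter 16 and 12. With limma-voom, all 10 libraries in the fit or the graft percentage as a covariate, 0 genes were called lower. With 1 tumour left out, 0 to 27 genes were higher, 0 to 5 lower and 0 to 1 members called.

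For tumours against controls, DESeq2 called 254 genes higher and 1971 lower. Library totals gave 262 and 263, with 0 members called and ZEB1 at 0.78, TWIST1 at 1.44 and MGP at 0.14, all turned in direction. No filter gave 65 genes higher and 1 member. With 1 library left out, 58 to 1906 genes were higher, 480 to 1262 lower and 1 to 4 members called. TWIST1 then ran from -1.03 to 0.47 and SERPINA3 from -0.38 to 2.07, changing direction without control replicate 2 (both) or control replicate 1 (SERPINA3). Without control replicate 3 the higher count was 1906.

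For the culture, 142 genes lay above and 154 under all tumours at 4-fold, 1234 and 677 against primary tumours alone and 1162 and 600 against recurrent tumours alone. Depth limits SNAI1, with 4 to 13 counts in a tumour, and 8 members with at most 27 counts in control replicates 1 and 2.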
